A study of Mus musculus with 6 samples.

Results

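The platelet-derived growth factor (PDGF) family was followed by its gene symbols in RNA of cultured mouse lung endothelial cells with and without Zmpste24. All 7 symbols looked for, the 4 ligand genes Pdgfa, Pdgfb, Pdgfc and Pdgfd and the 3 receptor genes Pdgfra, Pdgfrb and Pdgfrl, were in the table of 53735 genes, and all 7 were among the 15229 genes tested, those averaging 10 or more normalized counts per library. Poly(A)-selected RNA was sequenced in 6 libraries, 4 labelled ZMPSTE24 knockout (knockout 1 to 4) and 2 labelled ZMPSTE24 wild type (wild type 1 and 2), numbered as in their titles. Beads carrying antibodies to CD31 and to ICAM2 were used to isolate the cells, which stayed in primary culture until confluent, with no passage and no treatment. The mice came from 2 cohorts, to which the labels assign no library. Zmpste24 encodes the protease that completes the maturation of prelamin A, and the study concerns how endothelial cells fail in the premature ageing disease Hutchinson-Gilford progeria. The strain, age and sex of the mice, and whether each library came from its own animal, are not given in the sources used here, so p-values here compare libraries and may rest on technical spread.

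PDGF ligands are secreted as dimers that bring receptor tyrosine kinase chains together. In blood vessels the endothelium secretes PDGF-B, and pericytes and smooth muscle cells carry its receptor PDGFR-beta, a pairing by which sprouting vessels recruit their coat of mural cells. PDGFR-alpha is typical of fibroblasts and their precursors, and PDGF-A acts through it on the mesenchyme of the growing lung.

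The libraries themselves differed in ways that touch every result. Over the tested genes other than the family, knockout 1 and wild type 1 (the first library set) stood apart from knockout 2, 3 and 4 and wild type 2 (the second library set) on the first principal component, which held 77.3% of the variance. Markers of several cell types were present in all 6 libraries, which held 32699024 to 45613685 reads. Summed over each list, the 13 endothelial markers reached 44195 to 120925 normalized counts in knockout and 69618 to 201893 in wild type libraries, and the 13 markers of mural cells (pericytes and smooth muscle) 66036 to 221012 in knockout and 71471 to 250557 in wild type libraries. The 16 fibroblast markers reached 371437 to 433210 counts in knockout and 431761 to 449550 in wild type libraries, the 7 mesothelial markers 9786 to 81819 in knockout and 19151 to 36319 in wild type, and the 10 macrophage and leukocyte markers 1410.2 to 44741 in knockout and 1665 to 29782 in wild type. Markers with a library at 0 were Higd1b among the mural and Ces1d among the fibroblast genes. The targeted gene Zmpste24 had 5079, 3764, 3599 and 3720.0 counts in knockout 1 to 4, against 5503 and 4148 in wild type 1 and 2, with limma adjusted p = 1.00. The deleted part of the gene is not named in the labels, so these counts do not check the genotype.

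The plainest pattern in the family was not one of genotype. The genotypes overlapped in all 7 genes, and the library sets did not overlap in 5 of them. Pdgfa, Pdgfb and Pdgfd were higher in both libraries of the first set than in any of the second, and Pdgfra and Pdgfrl were lower. Such separation was common among all tested genes, of which 30.7% were higher and 32.7% lower in the first set without overlap (63.4% in all), so that 5 of 7 is close to the background. Marker sums also split between the sets, except for the fibroblast list. Fibroblast markers summed to 408826 counts in knockout 1 and 431761 in wild type 1, and to 371437 to 449550 in the second set. Most of these sums came from Col1a1, Col1a2 and Col3a1 (132850, 168691 and 70028 in knockout 1). By mean log2 level, in which each gene counts alike, the 15 tested fibroblast markers were lower in both first-set libraries than in any of the second set. Endothelial markers summed to 120925 counts in knockout 1 and 201893 in wild type 1, and to 44195 to 72595 in the second set. Mural markers summed to 221012 and 250557 in these libraries and to 66036 to 122232 in the second set. Most of the first-set mural sums came from Acta2 (115895 in knockout 1 and 136402 in wild type 1) and Tagln (71920 and 66720). By mean log2 level the 12 tested mural markers overlapped between the sets. Mesothelial markers were also higher in the first set, while macrophage and leukocyte markers were at 1410.2 in knockout 1 and 1665 in wild type 1, and at 27556 to 44741 in the second set. The part of these markers in the split of the family was not tested. The sets were defined from the other genes and no test was made between them.

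**Figure D1:**
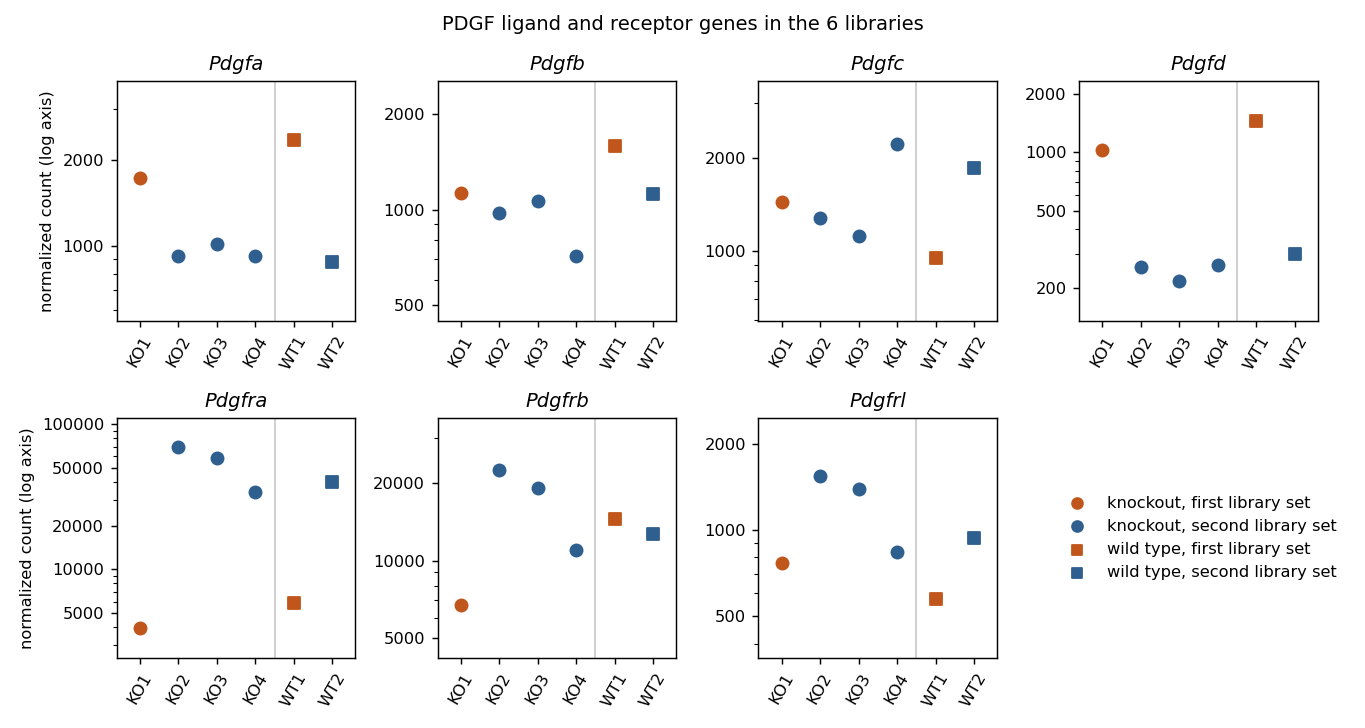
Normalized counts of the 7 PDGF genes in knockout 1 to 4 (KO1 to KO4) and wild type 1 and 2 (WT1, WT2), on a log axis with its own range in each panel. Circles stand for knockout and squares for wild type libraries, and colour for the library set. Pdgfra spans 3946 to 69228 counts, with knockout 1 and wild type 1 lowest, while Pdgfb spans 712 to 1591.

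Pdgfb, the endothelial ligand gene (chromosome 15, 79995874 to 80014977, minus strand, GRCm38), was the member with the smallest spread and a steady order within the sets. It had 1132, 976, 1066 and 712 normalized counts in knockout 1 to 4, against 1591 and 1119.9 in wild type 1 and 2. The genotypes overlapped by a narrow margin, since knockout 1 lay just above wild type 2. Each knockout library nevertheless lay below the wild type library of its own set, at 71.1% of wild type 1 in knockout 1 and at 87.2%, 95.2% and 63.5% of wild type 2 in knockout 2, 3 and 4. Of all tested genes, 10.8% were below their own wild type in all 4 knockout libraries, and knockout 2, 3 and 4 share wild type 2. Pdgfd was the other member below its own wild type in all 4, and 0 of the 7 were above it in all 4, against 10.1% of tested genes. The means were 971 ± 185 (SD, n = 4) in knockout and 1356 ± 333 (SD, n = 2) in wild type libraries. On the log2 scale knockout minus wild type was −0.48 ± 0.24 (SE; 95% interval −1.08 to 0.12; limma adjusted p = 1.00), and Pdgfb did not pass the test. With a library-set term its value was −0.38 ± 0.19 (SE; limma adjusted p = 0.999).

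Endothelial markers moved beside Pdgfb in part of the libraries. The mean log2 level of the 13 markers differed from the wild type of the set by −0.71, 0.09, −0.14 and −0.60 in knockout 1 to 4, while Pdgfb differed by −0.49, −0.20, −0.07 and −0.65. Taken relative to that mean, Pdgfb differed by 0.22, −0.29, 0.07 and −0.05 on the log2 scale in knockout 1 to 4, with both signs present. All 13 markers had a log2 difference below 0 in the test by genotype and 0 were called. In bulk RNA, fewer endothelial cells and less RNA per cell cannot be told apart, and the part of the markers in the Pdgfb values was not tested.

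Pdgfa and Pdgfd shared the split between the sets. Pdgfa, the gene of a PDGFR-alpha ligand (chromosome 5, 138976014 to 138997370, minus strand), had 1722, 919.8, 1019 and 922 counts in knockout 1 to 4, against 2346 and 877 in wild type 1 and 2. Knockout 1 and wild type 1 were high in it, and the other 4 libraries lay within 877 to 1019. Its log2 difference was −0.38 ± 0.45 (SE; 95% interval −1.49 to 0.74; limma adjusted p = 1.00). A library-set term brought it to −0.11 ± 0.14 (SE).

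Pdgfd lies on chromosome 9 (6168584 to 6378850, plus strand), and its product is secreted in a latent form and acts through PDGFR-beta once cleaved. It had 1027, 255, 215 and 260.4 counts in knockout 1 to 4, against 1456 and 297 in wild type 1 and 2. Of the 4 ligand genes it had the widest relative range, 6.77-fold from the lowest to the highest library. Each knockout library lay below the wild type of its set, by a log2 difference of −0.50 in knockout 1 and of −0.22, −0.46 and −0.19 in knockout 2, 3 and 4. Relative to the mean of the endothelial markers the direction was mixed, at 0.20, −0.31, −0.32 and 0.41 in knockout 1 to 4. The difference by genotype alone was −0.92 ± 0.87 (SE; 95% interval −3.05 to 1.21; limma adjusted p = 1.00). With a library-set term it was −0.38 ± 0.13 (SE; 95% interval −0.71 to −0.04). The adjusted p was then 0.999 in limma and 0.899 in DESeq2. Pdgfd therefore passed no test adjusted over all genes. By genotype alone and without wild type 1 its log2 difference was 0.23. That fit compares knockout libraries of both sets with wild type 2 of the second set alone, so its sign cannot be read apart from the sets.

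Promoter windows were in the RefSeq table (GRCm38.p6) for 4 of the 7 genes, Pdgfa, Pdgfc, Pdgfd and Pdgfra. The 250 bases before the start are shown for Pdgfa and Pdgfd, which were high in the same libraries, and for Pdgfra, which was low in them. Capitals mark matches on either strand to the GC box, searched as GGGCGG, or to the TATA box, searched for with the letters TATAAA. Matches to these motifs do not overlap in these windows. The windows are chr5:138994945-138995194 (minus strand, the farther upstream of 2 Pdgfa entries), chr9:6168236-6168485 (plus strand) and chr5:75152001-75152250 (plus strand).
Pdgfa: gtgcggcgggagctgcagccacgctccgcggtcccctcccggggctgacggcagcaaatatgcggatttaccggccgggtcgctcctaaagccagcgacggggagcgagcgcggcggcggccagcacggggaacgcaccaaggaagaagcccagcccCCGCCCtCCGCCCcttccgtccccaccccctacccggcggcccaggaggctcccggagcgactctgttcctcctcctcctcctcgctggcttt
Pdgfd: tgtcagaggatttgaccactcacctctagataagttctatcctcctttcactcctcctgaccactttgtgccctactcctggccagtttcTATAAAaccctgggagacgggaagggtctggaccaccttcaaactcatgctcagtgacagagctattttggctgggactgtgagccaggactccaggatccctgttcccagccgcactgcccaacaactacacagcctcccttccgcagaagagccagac
Pdgfra: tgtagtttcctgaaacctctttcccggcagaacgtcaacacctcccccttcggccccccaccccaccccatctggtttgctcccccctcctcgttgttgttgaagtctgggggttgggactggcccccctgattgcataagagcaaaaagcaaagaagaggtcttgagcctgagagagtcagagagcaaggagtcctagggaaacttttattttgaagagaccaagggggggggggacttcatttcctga
The Pdgfa window holds 2 GC box matches and 72.4% G and C, the Pdgfd window 1 TATA box match and 53.6%, and the Pdgfra window neither motif and 54.4%. Among all 32851 windows of this length in the table, 32.7% hold a GC box match and 12.4% a TATA box match, and the median content of G and C was 52.4%. TGANTCA, the AP-1 motif, was searched as well, is in 6.75% of all windows and is in none of these 3. A match is a string of letters and was not examined as a binding site, and the gene counts do not tell which start was used.

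Pdgfc (chromosome 3, 81036416 to 81214040, plus strand) was the ligand gene that did not separate the sets. Its product is also secreted in a latent form and acts mainly through PDGFR-alpha. It had 1436, 1277, 1122 and 2216 counts in knockout 1 to 4, against 951 and 1850.3 in wild type 1 and 2, so that knockout 4 was highest and wild type 1 lowest. Against the wild type of the set, knockout 1 and 4 were higher, by a log2 difference of 0.59 and 0.26, and knockout 2 and 3 lower, by −0.53 and −0.72. The difference by genotype was 0.14 ± 0.37 (SE; 95% interval −0.76 to 1.04; limma adjusted p = 1.00), and −0.33 ± 0.42 (SE) in the second set alone.

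Pdgfra (chromosome 5, 75152292 to 75198215, plus strand) had the widest range of the family. It had 3946, 69228, 58581 and 34289.5 counts in knockout 1 to 4, against 5842 and 39694 in wild type 1 and 2. The first set was low for both genotypes, with no overlap, and the range of 17.5-fold was larger than that of 96.5% of tested genes. Within the second set knockout 2 and 3 were above wild type 2 and knockout 4 was below it, at 174.4%, 148% and 86.4% of its level, and knockout 1 was at 67.6% of wild type 1. The log2 difference by genotype was 0.84 ± 1.36 (SE; 95% interval −2.50 to 4.18; limma adjusted p = 1.00). With a library-set term it was 0.00 ± 0.36 (SE; 95% interval −0.89 to 0.90). It was −0.54 without wild type 1 and 2.22 without wild type 2, so the value rests on which wild type library is kept.

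Pdgfrb, the receptor gene of mural cells (chromosome 18, 61045150 to 61085061, plus strand), was abundant in every library. It had 6708, 22486, 19138 and 10958.5 counts in knockout 1 to 4, against 14571.5 and 12702 in wild type 1 and 2. Unlike Pdgfra it did not separate the sets, because wild type 1 lay between the libraries of the second set. The knockout libraries spanned 3.35-fold, from knockout 1 as the lowest of the 6 libraries to knockout 2 as the highest, and both wild type libraries fell inside that span. The means were 14823 ± 7260 (SD, n = 4) in knockout and 13637 ± 1322 (SD, n = 2) in wild type libraries. The log2 difference was −0.03 ± 0.50 (SE; 95% interval −1.26 to 1.20; limma adjusted p = 1.00), and its sign changed between the tools, at 0.13 in edgeR and 0.11 in DESeq2.

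Both receptor kinase genes kept the same order among the knockout libraries of the second set. For Pdgfrb the log2 differences from the wild type of the set were −1.12, 0.82, 0.59 and −0.21 in knockout 1 to 4, and for Pdgfra −0.57, 0.80, 0.56 and −0.21. The mean log2 level of the 12 tested mural markers differed by −0.60, 0.88, 0.76 and 0.10 in the same libraries. That of the 15 tested fibroblast markers differed by −0.09, 0.48, 0.36 and −0.14. Relative to the mural mean, Pdgfrb was lower than in the wild type of the set in each knockout library, by −0.52, −0.06, −0.17 and −0.32. That mean counts each marker alike, and the pericyte gene Rgs5 had 776 and 687 counts in knockout 2 and 3 against 41.5 in wild type 2. The sign of the small values in knockout 2 and 3 depends on this marker. How common such an order is among all genes was not counted. Relative to the fibroblast mean Pdgfrb had both signs, at −1.03, 0.34, 0.23 and −0.07. Over the groups, the mean of Pdgfrb relative to the mural markers was 3.04 ± 0.73 in knockout (SD, n = 4) and 3.03 ± 0.78 in wild type libraries (SD, n = 2), on the log2 scale. Whether the receptor values follow the amount of mural cells or fibroblasts was not tested.

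**Figure D2:**
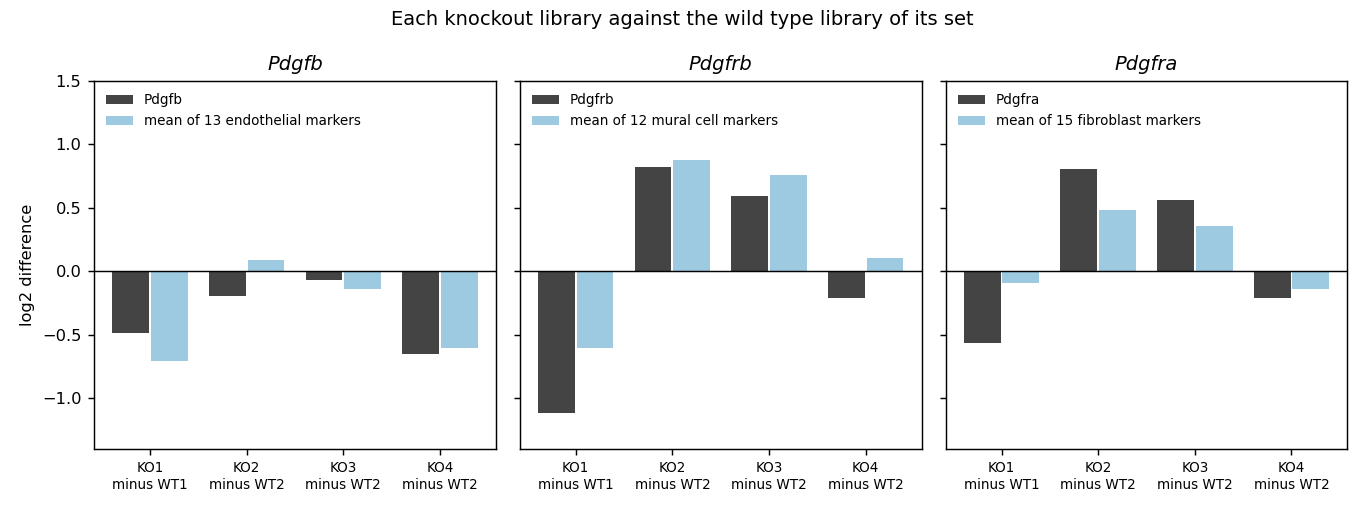
Log2 difference of each knockout library from the wild type library of its set, for Pdgfb, Pdgfrb and Pdgfra (dark bars) and for the mean log2 level of endothelial, mural and fibroblast markers (light bars). Knockout 2, 3 and 4 share wild type 2. Pdgfb is below 0 in all 4 libraries, and both receptor genes are above 0 in knockout 2 and 3 and below 0 in knockout 1 and 4.

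Pdgfrl (chromosome 8, 40926212 to 40990785, plus strand) encodes a receptor-like protein with no kinase domain. It had 765, 1538, 1386 and 838 counts in knockout 1 to 4, against 572 and 934 in wild type 1 and 2. Both libraries of the first set were lowest, with knockout 1 above wild type 1. In the second set knockout 2 and 3 were above wild type 2 and knockout 4 below it, the order also seen in the kinase receptor genes. The means were 1132 ± 388 (SD, n = 4) in knockout and 753 ± 257 (SD, n = 2) in wild type libraries. On the log2 scale they differed by 0.56 ± 0.37 (SE; 95% interval −0.35 to 1.48; limma adjusted p = 1.00), which did not pass the test.

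By limma, 0 of the 7 genes were called between genotypes, against 1 of 15229 tested genes (0.00657%), and 0 of the 7 had an unadjusted p under 0.05, as 143 of all tested genes did. On the recovered reads, edgeR also called 0 of the 7 and 1 gene in all (0.00657%), and DESeq2 0 of the 7 and 7 genes in all (0.046%). With a library-set term 0 of the 7 were called by limma (0.00657% of all tested genes), by edgeR (0.0131%) or by DESeq2 (0.328%), and Pdgfd was the member with an unadjusted p under 0.05 in these fits, as were 535, 535 and 557 of all tested genes in limma, edgeR and DESeq2. Groups without overlap between genotypes were found for 0 of the 7 genes and 4.68% of tested genes. Leaving out wild type 1 keeps knockout 1 of the first set with no wild type library of that set. Without wild type 1 the log2 difference by genotype changed sign in 5 members, to 0.33 for Pdgfa, −0.34 for Pdgfc, 0.23 for Pdgfd, −0.54 for Pdgfra and 0.0703 for Pdgfrb. It also changed sign for Pdgfrb without knockout 1 (0.30) or knockout 4 (0.0657), and for Pdgfc without knockout 4 (−0.0601). Pdgfb stayed below 0 and Pdgfrl above 0 whichever library was left out. The intervals were wide. For Pdgfb the 95% interval with that term ran from −0.85 to 0.08 on the log2 scale.

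**Figure D3:**
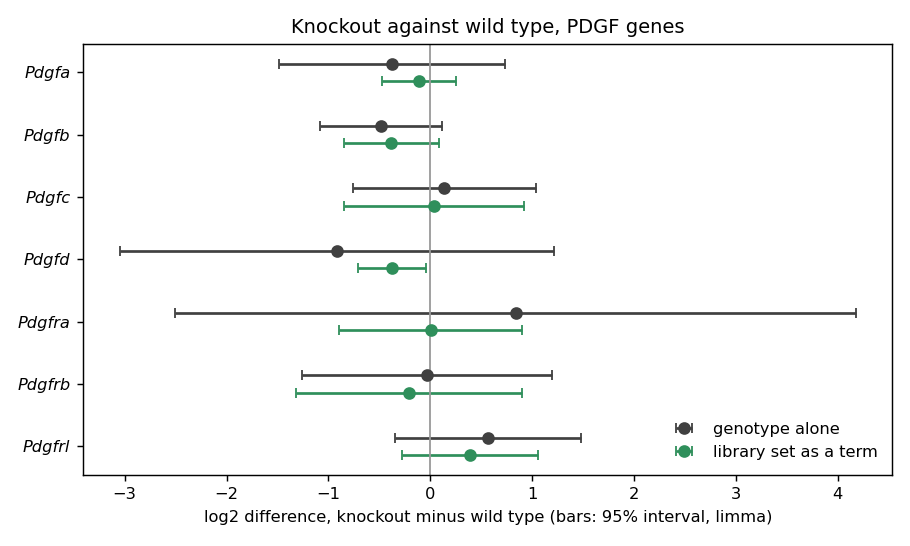
Log2 difference, knockout minus wild type, of the 7 PDGF genes by limma with genotype alone and with a library-set term. Bars are 95% intervals over 4 knockout and 2 wild type libraries. The interval of Pdgfra narrows from −2.50 to 4.18 with genotype alone to −0.89 to 0.90 with the library set, and Pdgfd is the gene whose second interval, −0.71 to −0.04, leaves out 0.

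Levels of different genes were compared per kilobase of annotated exon. In knockout 2, 3 and 4 and in wild type 2 Pdgfra was the most abundant family member, at 6906, 5844, 3421 and 3960 normalized counts per kb, and Pdgfrb was next at 4105, 3494, 2000.0 and 2319. In knockout 1 and wild type 1 Pdgfrb led, with 1225 and 2660.0 per kb. Pdgfa was next at 552 and 752, and Pdgfra followed at 394 and 583. The ligand genes lay closer together, from 68.2 per kb for Pdgfd in knockout 3 to 752 for Pdgfa in wild type 1. Over the libraries Pdgfa ranged from 281 to 752, Pdgfb from 171 to 382 and Pdgfc from 187 to 435 per kb. Pdgfa was above Pdgfb in all 6 libraries, with the smallest gap in wild type 2 (281 against 269), and the place of Pdgfc among them changed between libraries.

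The balance between receptors and ligands followed the sets. The summed level per kb of Pdgfra and Pdgfrb was 1.13, 12.8, 10.7 and 5.51 times that of the 4 ligand genes in knockout 1 to 4, against 1.82 and 6.23 times in wild type 1 and 2. The ratio of Pdgfra to Pdgfrb per kb was 0.322, 1.68, 1.67 and 1.71 in knockout 1 to 4, against 0.219 and 1.71 in wild type 1 and 2. Within the second set this ratio stayed within 1.67 to 1.71, while Pdgfra itself ranged from 34289.5 to 69228 counts. Pdgfb made up 19.0%, 27.2%, 29.4% and 17.4% of the summed ligand level per kb in knockout 1 to 4, against 21.4% and 26.7% in wild type 1 and 2. Pdgfd made up 22.7% in knockout 1 and 25.9% in wild type 1, and 7.83% to 9.37% in the other 4 libraries.

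**Figure D4:**
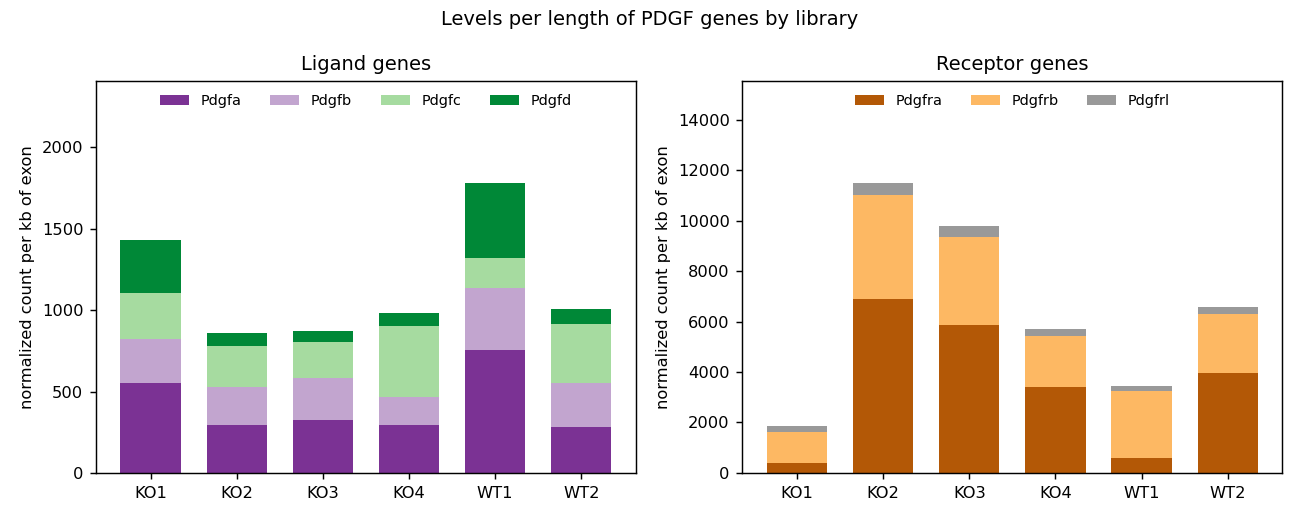
Normalized counts per kb of annotated exon, stacked over the 4 ligand genes (left) and the 3 receptor genes (right), in knockout 1 to 4 and wild type 1 and 2. The axes differ between the panels. Pdgfra makes up 394 and 583 per kb in knockout 1 and wild type 1 and 3421 to 6906 in the other libraries.

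Genes whose profile over the 6 libraries was most like that of each member were picked from 12033 named genes with a mean of at least 50, by the root mean square difference of centred log2 levels. Fes, a gene of a cytoplasmic tyrosine kinase, lay nearest to Pdgfb at 0.04 log2 units and Slfn5 next at 0.06. Tuba1a, an alpha-tubulin gene, and Ercc1, a DNA repair gene, were nearest to Pdgfa at 0.07 and 0.08. For Pdgfd the nearest were Cgnl1, of the junction protein paracingulin, and Ass1, of argininosuccinate synthase, at 0.11 and 0.14. Fgfr2, a fibroblast growth factor receptor gene, and Nap1l3 were nearest to Pdgfc, both at 0.14. Fibin and Crispld2 were both at 0.16 from Pdgfra, Zfp366 and Mylk, the myosin light chain kinase gene, at 0.13 and 0.15 from Pdgfrb, and Sik1 and Map4k3 at 0.06 and 0.08 from Pdgfrl. With 6 libraries in sets that differ in most genes, such closeness is a description of these libraries.

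Genes that act on the ligands or with them outside the cell were examined next. Of 12 such genes, 0 were called higher and 0 lower by limma, with a median log2 difference of −0.14 beside 0.00 over all tested genes. Lrp1, which encodes an endocytic receptor that binds PDGFR-beta, averaged 103359 ± 22263 counts in knockout and 91140 ± 17291 in wild type libraries. Sparc, of a matrix protein that binds PDGF, averaged 180398 ± 49261 in knockout and 205557 ± 55856 in wild type libraries. Hspg2, of the heparan sulfate proteoglycan perlecan, averaged 43378 ± 16421 in knockout and 68339 ± 38288 in wild type libraries (SD, n = 4 and n = 2 for all 3 genes). Its log2 difference from the wild type of the set was −0.49, −0.36, −0.16 and −0.17 in knockout 1 to 4, and DESeq2 with a library-set term gave adjusted p = 0.726.

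Inside the cell, the genes that carry or end the receptor signal came next. Of the 23 signal transducers of the receptors 0 were called in either direction (median log2 −0.03, lowest −0.30, highest 0.40), and of the 10 negative regulators likewise 0 (median 0.04, −0.21 to 0.28). The abundant transducer genes Ptpn11, of the phosphatase SHP2, Akt1 and Mapk3, both of kinases, differed by −0.09 ± 0.23, −0.21 ± 0.37 and −0.06 ± 0.12 (log2, SE). Among the negative regulators Rasa1, of a Ras GTPase activator, differed by −0.21 ± 0.30, Cblb, of a ubiquitin ligase, by 0.11 ± 0.12 and Ptpn12, of a phosphatase, by −0.02 ± 0.11. Of the 15 immediate early genes of growth factor stimulation 0 were called, with a median of 0.04. Ccl2, a chemokine gene, differed by 0.12 ± 0.44, the phosphatase gene Dusp1 by 0.23 ± 0.26 and the antiproliferative gene Btg2 by 0.01 ± 0.15.

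The closest relatives of the family are the VEGF ligands and receptors and the class III receptor kinases. Of 12 symbols 11 were in the table, Vegfd being listed under its other symbol Figf, and 10 were tested, Flt3 being below the minimum. By limma 0 of these 10 were called, and by DESeq2 with a library-set term 2 were called lower and 0 higher, in a fit that called 0.328% of all genes. These were Flt1, a VEGF receptor gene (DESeq2 adjusted p = 1.90e-04), and Flt4, of a VEGF-C and VEGF-D receptor of lymphatic vessels (DESeq2 adjusted p = 0.00809). Limma with the same term gave Flt1 −0.97 ± 0.15 and Flt4 −1.01 ± 0.20 (log2, SE), both at adjusted p = 0.999, and edgeR with that term gave adjusted p = 0.909 and 1.00, so that DESeq2 alone called them. All 13 endothelial markers were below 0 in both limma fits, and their part in these values was not tested. Vegfa differed by 0.18 ± 0.29 and Figf by 0.95 ± 0.66 (log2, SE, genotype alone), and Figf ran from 0.18 to 1.72 with a library left out. Flt1 and Pdgfb were both below the wild type of the set in all 4 knockout libraries, Flt1 by −1.28, −0.80, −0.59 and −0.92 in knockout 1 to 4. The difference between the 2 genes was not tested.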

How the data were processed

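The authors deposited a signal per gene, read counts scaled by a size factor per library. The submitters' processing notes name Trimmomatic 0.36, STAR 2.6.0c, featureCounts of Subread 1.6.1 and GRCm38.p6. The design text of the series gives Trimmomatic 0.32, STAR 2.4.2a, HTSeq and DESeq2 1.10.1 instead, and the sources used here do not settle which made the table, or whether counting used strand. Antisense genes in GENCODE M21 cover 1156 of the 4161 exon bases of Pdgfb (Gm41361), 813 of the 3119 of Pdgfa (6330403L08Rik), 147 of the 5089 of Pdgfc (Gm16000) and 599 and 166 of the 10024 of Pdgfra (Gm42802 and Gm42803), and are not in the table under these names, so these counts may hold reads of both strands.

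Whole reads were recovered from the steps of the values (100% of values whole within 1e-06 of a read). The lowest member value rested on 251 reads (Pdgfd, knockout 3), a counting error of 6.31%. Any pair of libraries of 1 genotype differed by a chi-square of 28.4 or more per gene, beyond sampling noise.

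Genes averaging 10 or more were tested by limma 3.58.1 (R 4.3.3, lmFit and eBayes with trend) on log2(normalized count + 1), which understates changes of low genes, with Benjamini-Hochberg adjustment over all of them and a threshold of 0.05. Alternatives were edgeR 4.0.16 and DESeq2 1.42.0 on recovered reads, other pseudocounts, filters and scalings, terms for the library set or the title number, and each library left out. Fits were tested on simulated data.

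The members, gene lists and tests were chosen with earlier results of these data known. Genes named were the 7 members, from each list of pathway genes those called and the 3 most abundant, and for each member the 2 of nearest profile. Marker lists are given as sums and means.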

Additional observations from a re-analysis of the deposited data

Results flagged for a closer look

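In the knockout group, knockout 1 lay far from the other 3 libraries in 5 of 30 genes examined, the members, the named pathway genes and those of the closing observations. The gap between knockout 1 and its nearest neighbour, as a share of the range of the 4 knockout libraries, was 0.877 for Pdgfa and 0.944 for Pdgfd, past the 95% critical value of Dixon's test for 4 samples. It was 0.873 for Sparc, 0.861 for Hspg2 and 0.938 for Ptpn11. Knockout 1 was the highest in all 5. Chance flags about 1 in 20 such groups when the libraries are alike, and genes of 1 library are not independent. Knockout 1 is the sole knockout library of the first set, and 63.4% of tested genes separated the sets, so that rate is no measure for these genes. Wild type 1, of the same library set, was also above wild type 2 in each of these 5 genes.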

How the results depend on the processing

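Under all 19 alternatives 0 of the 7 family members were called, and Pdgfb and Pdgfrl kept their sign. Over all genes, limma called 1 gene, against 2 with a pseudocount of 10, 0 in the second library set alone, 0 in a fit with a replicate block (title number) and 0 to 2 with a library left out. DESeq2 called 7 genes, 50 with a library-set term, and edgeR 2 with that term. In the list of VEGF relatives DESeq2 with that term called 2 genes, where limma called 0. Pdgfrb turned to 0.13 in edgeR and 0.11 in DESeq2. In the second set alone Pdgfa was at 0.12, Pdgfc at −0.33, Pdgfrb at 0.40, Ptpn11 at 0.00218, Mapk3 at 0.0216, Akt1 at 0.10, Rasa1 at 0.0856, Ptpn12 at 0.0798 and Vegfa at −0.10 (log2, opposite to the sign by genotype alone). With a library-set term Ptpn11 turned to 0.0413 in limma, 0.0479 in edgeR and 0.042 in DESeq2, and Akt1 to 0.00439, 0.0154 and 0.00921. Ptpn12 was at 0.00261 with TMM scaling. With a library left out, log2 differences ran from −1.09 to 0.33 for Pdgfa, −0.73 to −0.23 for Pdgfb, −0.34 to 0.62 for Pdgfc, −2.06 to 0.23 for Pdgfd, −0.54 to 2.22 for Pdgfra, −0.28 to 0.30 for Pdgfrb and 0.21 to 0.92 for Pdgfrl. The positive values of Pdgfa and Pdgfd and the negative one of Pdgfra came without wild type 1. The same range was −0.0283 to 0.36 for Lrp1, −0.48 to 0.0841 for Sparc, −1.20 to 0.00607 for Hspg2, −0.31 to 0.14 for Ptpn11, −0.17 to 0.043 for Mapk3, −0.70 to 0.29 for Akt1, −0.65 to 0.23 for Rasa1, −0.0706 to 0.0393 for Ptpn12, −0.33 to 0.57 for Ccl2, −0.0393 to 0.10 for Btg2, −0.23 to 0.60 for Vegfa, 0.18 to 1.72 for Figf, −1.63 to −0.65 for Flt1, −1.56 to −0.95 for Flt4, 0.10 to 0.40 for Dusp1 and 0.0522 to 0.165 for Cblb. The cause of these changes was not tested. Title numbers 1 and 2 occur in both genotypes, and deviations from the group means correlated across genes at 0.841 for number 1 and 0.562 for number 2. Deviations of the 2 wild type libraries are exact opposites. Knockout 1 with wild type 2 therefore gave −0.841, and knockout 2 with wild type 1 gave −0.562. Same-numbered libraries also lie in the same library set, and with so few pairs the numbers are not shown to pair the samples in any other way. Title numbers 3 and 4 occur in knockout alone, so with the replicate block the genotype difference rests on knockout 1 and 2 and the wild type libraries. Knockout 4, in which Pdgfrl was below wild type 2, does not enter it. In that fit Ptpn11 was at 0.0639, Akt1 at 0.0786 and Pdgfb at −0.34, and none of the members was called. Pdgfrl (0.57, adjusted p = 0.943 in limma) nevertheless had an unadjusted p under 0.05, as did 781 of all genes. Without wild type 2, 1 member and 842 genes had one. With 2 wild type libraries in different sets, a difference between genotypes is limited by the number of libraries.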

Other observations

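Further genes, chosen after their values were seen, were high in knockout 2 and 3 of the second library set. Rgs5, Kcnj8 and Notch3 were picked from the list of 13 mural markers. The pericyte gene Rgs5 had 60.6, 776, 687 and 158 normalized counts in knockout 1 to 4, against 36.6 and 41.5 in wild type 1 and 2. Kcnj8, a potassium channel gene of pericytes, had 161, 862, 737 and 341 counts in the knockout libraries, against 412 and 328 in wild type. Notch3, a receptor gene of mural cells, had 1542, 4218, 3700 and 1579 counts in the knockout libraries, against 4622 and 1689 in wild type. In all 3 genes knockout 2 and 3 were above wild type 2, as for Pdgfra and Pdgfrb. Knockout 4, which lay below wild type 2 in both receptor genes and in Notch3, lay above it in Rgs5 and Kcnj8. Wild type 1 was above knockout 1 in Kcnj8 and Notch3 but not in Rgs5. The mural list as a whole was not highest in knockout 2 and 3. Acta2 had 115895 counts in knockout 1 and 136402 in wild type 1, against 54028 and 42660 in knockout 2 and 3. Tagln had 71920 and 66720, against 35817 and 25189, and Mcam, like Notch3, was highest in wild type 1 (21075). In Acta2, Tagln and Mcam as well, knockout 2 and 3 were above wild type 2.

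Fos, Egr1 and Ier2, early response genes of growth factor signalling picked from a list of 15, had the same high libraries. Fos had 871, 4835, 3356 and 1805 counts in knockout 1 to 4, against 621 and 1967 in wild type 1 and 2. Egr1 had 1777, 9583, 8352 and 5813 in knockout, against 2343 and 5049.8 in wild type. Ier2 had 786, 3349.8, 3237 and 2196 in knockout, against 977 and 1970.2 in wild type. Knockout 2 and 3 were the highest libraries in all 3 of these genes, and the first set was the lowest. Summed over its 15 genes, the list was also highest in knockout 2 and 3, at 65661 and 64816 counts. The first set was not the lowest in that sum, with 53385 in knockout 1 and 50968 in wild type 1, against 47667 in knockout 4 and 48837 in wild type 2. Ccl2 differed from the sum, being highest in knockout 1 at 14185 counts and in wild type 1 at 10493. Of the 15 genes 0 were called. Pcsk5, of a proprotein convertase, had 196, 3227, 2199 and 646 counts in knockout 1 to 4, against 77.5 and 1128 in wild type 1 and 2, with knockout 2 and 3 again highest.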
